A study of Mus musculus with 4 samples.

Results

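The sarcomere is the contractile unit of striated muscle, and 46 mouse genes for its parts, for calcium handling and for muscle metabolism were followed in 4 RNA-seq libraries. The list was drawn up with earlier liver results of these data in view, and the liver values are therefore given as a description. The list holds 21 genes used mainly in skeletal muscle, 15 used mainly in heart or in heart and slow muscle, and 10 used in both muscles. Isoforms of 45 of the 46 genes stood in both liver libraries, out of 33678 genes with a symbol there, and 9 stood in both embryo libraries, out of 4191. No isoform was matched to Acta1, the skeletal alpha-actin gene, whose level was not analysed here.

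Total RNA was sequenced from whole mouse embryos at embryonic day E11.5 and from embryonic livers at E15.5. In each tissue, 1 library was labelled Adar1-/- Mavs-/- and 1 library Adar1-/-, so all 4 libraries share the loss of Adar1, which encodes the enzyme that edits adenosine to inosine in double-stranded RNA. Mavs encodes the mitochondrial adaptor through which cytoplasmic RNA sensors signal. The strain label was C57B16/N for both embryo libraries and C57B6/J for both liver libraries. The sources used here do not give how the alleles were made, how many embryos went into a library or how the livers were dissected. Each group is 1 library, so no difference below has a replicate check, and each value compares 2 libraries.

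The liver tables held 289174 isoforms for the library labelled Adar1-/- Mavs-/- and 301774 for the library labelled Adar1-/-, and the embryo tables held 30090 and 24127. In common, the embryo tables cover chromosomes 10 and 11 with the start of chromosome 12. Read totals were not used here, and read depth per FPKM, which scales with them, was 7.13 and 8.58 in the liver libraries and 5.62 and 3.48 in the embryo libraries, in the same order. Hepatocyte genes matched the tissue label, with Alb, the albumin gene, at 6648 FPKM in the liver labelled Adar1-/- Mavs-/- and 4787 FPKM in the liver labelled Adar1-/-. Mavs itself stood at 9.96 FPKM in the liver labelled Adar1-/- Mavs-/- and 7.26 FPKM in the liver labelled Adar1-/-, so its level does not check the labels, and libraries are called by their labels throughout. Adar stood at 4.11 and 5.56 FPKM in the same order.

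In a sarcomere, thick filaments of myosin pull on thin filaments of actin that are anchored in the Z-disc, and titin spans from the Z-disc to the middle of the thick filament. Calcium released from the sarcoplasmic reticulum binds troponin C and frees the actin surface for myosin, and the calcium pumps take it back. Most of these proteins come in a skeletal and a cardiac form from separate genes. In embryos the division is less strict, since developing skeletal muscle also uses forms best known from the heart, among them Actc1, Tnnt2 and Myl4. The liver has no striated muscle of its own, and the diaphragm and the heart lie next to it.

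The promoters of 6 genes that stand out in the results are shown here, because they hold the short sequences known to be bound by muscle transcription factors. They are RefSeq promoters of 300 bases each, most of it before the start of the gene, on the build GRCm38.p6, written 5′ to 3′ in the direction of the gene, with each match in capitals. The E-box CAGCTG is bound by MyoD-family factors, MCAT (CATTCC) by TEAD factors, the CArG box by serum response factor and the MEF2 element by MEF2 factors. TATAAA was also marked, and all motifs were searched on both strands. In Myh8 the capitals cover a MEF2 element that overlaps a TATAAA match on the other strand.
Myl1, chr1:66945007-66945306, minus strand: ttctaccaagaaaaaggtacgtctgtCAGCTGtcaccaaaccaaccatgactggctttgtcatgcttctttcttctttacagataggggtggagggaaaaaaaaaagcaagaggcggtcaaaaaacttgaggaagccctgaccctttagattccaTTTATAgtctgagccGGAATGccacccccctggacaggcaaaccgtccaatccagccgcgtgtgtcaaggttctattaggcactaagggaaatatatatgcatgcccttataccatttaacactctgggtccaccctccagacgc
Mylpf, chr7:127211358-127211657, plus strand: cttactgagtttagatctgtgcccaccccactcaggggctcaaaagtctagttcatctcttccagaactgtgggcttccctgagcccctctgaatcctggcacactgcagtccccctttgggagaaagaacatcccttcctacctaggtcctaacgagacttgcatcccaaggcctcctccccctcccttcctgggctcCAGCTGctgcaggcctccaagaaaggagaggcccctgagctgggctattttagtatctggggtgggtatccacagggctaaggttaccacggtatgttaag
Myh8, chr11:67276874-67277173, plus strand: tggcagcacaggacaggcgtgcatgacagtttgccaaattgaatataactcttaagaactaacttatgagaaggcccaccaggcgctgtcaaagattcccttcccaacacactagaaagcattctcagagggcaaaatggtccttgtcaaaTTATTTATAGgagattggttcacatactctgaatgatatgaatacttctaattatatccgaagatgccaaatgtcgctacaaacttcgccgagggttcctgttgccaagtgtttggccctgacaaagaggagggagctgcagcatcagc
Ckm, chr7:19410844-19411143, plus strand: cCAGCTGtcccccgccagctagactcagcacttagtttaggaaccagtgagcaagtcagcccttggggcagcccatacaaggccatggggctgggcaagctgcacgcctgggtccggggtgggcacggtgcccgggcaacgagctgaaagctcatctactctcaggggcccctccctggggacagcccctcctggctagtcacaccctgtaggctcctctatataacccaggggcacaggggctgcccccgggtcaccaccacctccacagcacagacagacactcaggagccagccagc
Actc1, chr2:114052826-114053125, minus strand: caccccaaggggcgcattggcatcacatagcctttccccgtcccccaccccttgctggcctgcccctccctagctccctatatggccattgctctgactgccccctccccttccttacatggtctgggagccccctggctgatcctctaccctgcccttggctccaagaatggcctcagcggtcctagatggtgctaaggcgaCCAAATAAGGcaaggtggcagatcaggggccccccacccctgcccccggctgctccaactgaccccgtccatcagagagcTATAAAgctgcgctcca
Myl7, chr11:5898733-5899032, minus strand: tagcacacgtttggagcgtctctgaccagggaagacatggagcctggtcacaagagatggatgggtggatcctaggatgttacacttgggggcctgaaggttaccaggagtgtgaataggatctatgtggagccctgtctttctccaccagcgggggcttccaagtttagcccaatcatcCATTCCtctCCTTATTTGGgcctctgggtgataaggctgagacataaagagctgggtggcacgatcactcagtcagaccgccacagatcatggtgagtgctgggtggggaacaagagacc
Promoters were matched for 36 of the 46 genes, and a gene with several promoters was taken once, with a match in any of them. The E-box stood in 17 of the 36, or 47.2%, against 18.3% of all 27025 genes with a promoter sequence. It was found in 9 of 15 skeletal genes, 5 of 14 cardiac genes and 3 of 7 genes of both muscles. The CArG box stood in 6 of 36 genes, or 16.7%, against 1.81% of all those genes, and the 6 were Acta1, Actc1, Ldb3, Myl3, Myl7 and Myom1. MCAT stood in 33.3% of the 36 members against 16.6% of all, TATAAA in 27.8% against 15.7%, and the MEF2 element in 13.9% against 3.70%. A match says only that these letters are in the window.

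In liver, the muscle genes were lower in the library labelled Adar1-/- Mavs-/- than in the library labelled Adar1-/-. FPKM scales the sequenced fragments of an isoform by its length and by the library's mapped fragments, and the isoforms of a gene were summed. A gene was counted where 1 or both libraries reached 1 FPKM. Differences are log2 ratios of scaled FPKM plus 1, called by size at 1 or more in either direction, which is 2-fold on that scale. Of the 45 genes, 35 were counted, of which 26 were called lower, 2 called higher and 7 lay within 2-fold. Over all 13577 counted genes, 10.1% were called lower and 7.17% higher, but the list was drawn up on this contrast, so its count is a description. The FPKM of all members summed to 54.4 in the liver labelled Adar1-/- Mavs-/-, against 294.9 in the liver labelled Adar1-/-, and 9 against 33 of them reached 1 FPKM. The median log2 ratio of the counted members was -1.93, beside -0.12 for all counted genes. For 33 of the 35 counted genes the deposited bounds of the 2 libraries did not overlap, as for 71.4% of all counted genes, and those bounds cover the estimate within a library only. In bulk tissue, fewer cells of a type and less RNA per cell cannot be told apart.

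Among all genes called 2-fold in liver, 41.5% were higher, and 25.5% were higher when the libraries were scaled to equal sums over shared genes, which shifts every log2 ratio by -0.32. The medians of the 3 classes lay between -1.84 and -2.19, and between -1.76 and -2.63 with reference isoforms only. Skeletal genes had 13 of 16 counted called lower and none higher, with a median of -2.19. Cardiac genes had 9 of 13 called lower and 1 higher, with a median of -1.84, and genes of both muscles had 4 of 6 called lower and 1 higher, with a median of -1.91. Summed levels were as follows. Skeletal genes came to 16.6 FPKM in the liver labelled Adar1-/- Mavs-/-, against 178.1 in the liver labelled Adar1-/-. Cardiac genes came to 35.3 against 90.1 FPKM and genes of both muscles to 2.53 against 26.7 FPKM, in the same order. Without Atp2a2, a pump that most tissues use, and Tnnc1, whose value is uncertain, the cardiac sum was 6.80 against 62.5 FPKM. Those genes had the highest FPKM of the cardiac class in the liver labelled Adar1-/- Mavs-/-, at 18.4 and 10.1. No gene was left out of the skeletal sum. Of its 178.1 FPKM in the liver labelled Adar1-/-, 64.0 came from a 285-base Mylpf isoform.

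**Figure D1:**
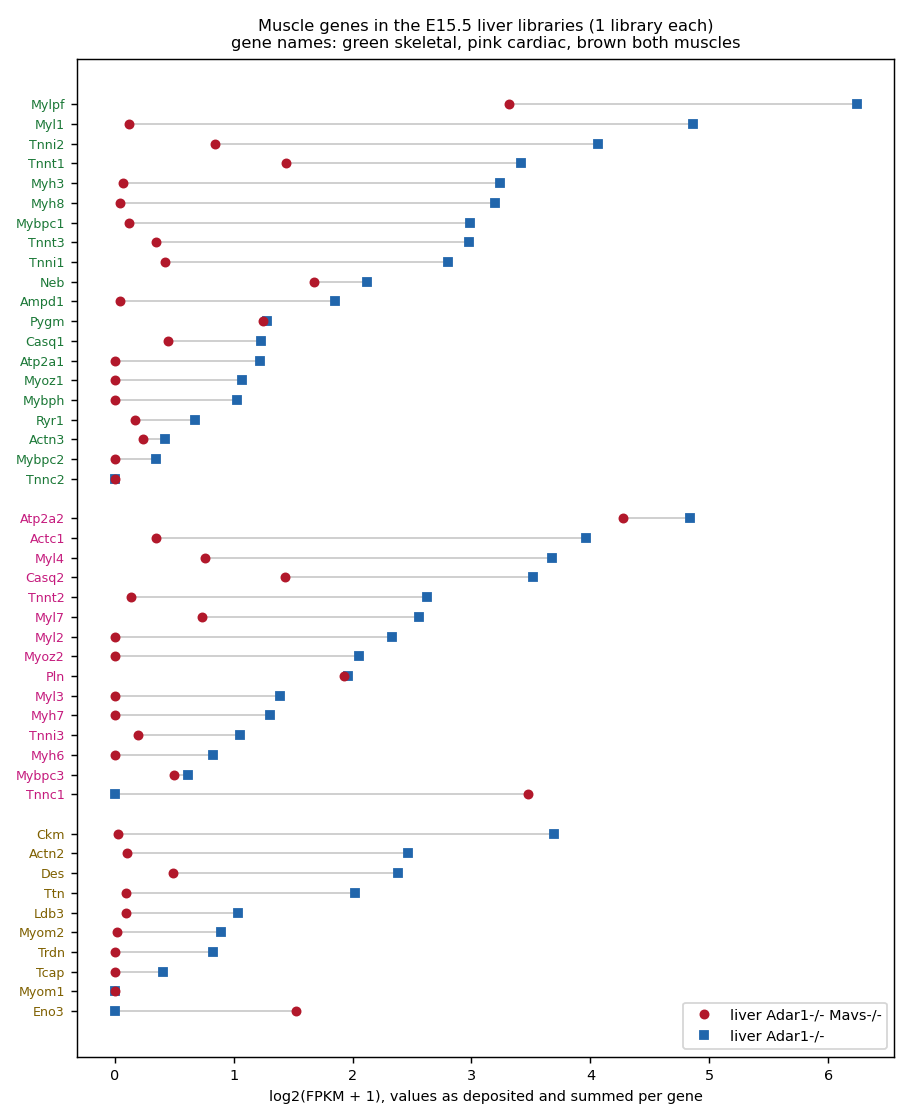
Level of each of the 45 muscle genes in the 2 liver libraries, as log2(FPKM + 1), with the library labelled Adar1-/- Mavs-/- as circles and the library labelled Adar1-/- as squares, grouped by class and ordered by level. Most circles lie near 0 and left of their squares; Pygm, Pln and Mybpc3 nearly coincide, and Tnnc1 and Eno3 lie the other way.

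The thick filament myosins of developing skeletal muscle were near 0 in the liver labelled Adar1-/- Mavs-/-. Myh3, the embryonic myosin heavy chain, had 0.048 FPKM in that library and 8.46 FPKM in the liver labelled Adar1-/- (log2 ratio -3.18). Myh8, the perinatal heavy chain, had 0.0347 against 8.17 FPKM (log2 ratio -3.15). They sit in a cluster of skeletal heavy chain genes on chromosome 11, with Myh3 at chr11:66891802-66915793 and Myh8 at chr11:67090626-67122136 on mm9, the build of the deposited positions. The genes of adult fibres in the same cluster were low in both livers. Myh4 had 0 against 0.558 FPKM, Myh1 had 0.0114 against 0.192 FPKM, Myh13 had 0.0112 against 0.178 FPKM, and Myh2 was listed at 0 in both. The cluster's reads in the liver labelled Adar1-/- thus lay mainly in the embryonic and perinatal genes.

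The cardiac heavy chains were lower in level than these. Myh7, the beta heavy chain of heart and slow muscle, had 0.00426 FPKM in the liver labelled Adar1-/- Mavs-/- and 1.47 FPKM in the liver labelled Adar1-/- (log2 ratio -1.30). Myh6, the alpha heavy chain of the heart, had 0.0043 against 0.772 FPKM and did not reach the minimum to be counted. In the liver labelled Adar1-/-, Myh3 and Myh8 thus stood above Myh7 and Myh6, and the deposited bounds of Myh3 and Myh8 overlapped.

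Myosin light chains held the largest difference of the list. Myl1, which encodes the essential light chains of fast muscle, had 0.0849 FPKM in the liver labelled Adar1-/- Mavs-/-, with bounds of 0 and 0.17, and 28.1 FPKM in the liver labelled Adar1-/-, with bounds of 26.7 and 29.6. Its log2 ratio of -4.75 was the lowest of all 35 counted members. Its spliced reference isoforms are a 1082-base form, at 0 against 10.8 FPKM, and an 803-base form, at 0.0849 against 17.4 FPKM, so both were lower. Mylpf, the fast regulatory light chain, was the most abundant member in the liver labelled Adar1-/-, at 74.7 FPKM. It had 8.93 FPKM in the liver labelled Adar1-/- Mavs-/- (log2 ratio -2.95). Of the 74.7 FPKM, 64.0 came from a 285-base isoform whose status is marked as low data, and without isoforms of that status, which leaves the isoform in the liver labelled Adar1-/- Mavs-/- only, the log2 ratio was -0.26. The full 766-base isoform alone had 0.669 FPKM in the liver labelled Adar1-/- Mavs-/- and 10.7 FPKM in the liver labelled Adar1-/-.

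The light chains of the heart were lower too. Myl4, the atrial and embryonic essential light chain, had 0.689 FPKM in the liver labelled Adar1-/- Mavs-/- and 11.8 FPKM in the liver labelled Adar1-/- (log2 ratio -2.93). Myl2 and Myl3, the ventricular and slow-muscle light chains, were listed at 0 in the liver labelled Adar1-/- Mavs-/- and had 4.03 and 1.62 FPKM in the liver labelled Adar1-/-. Myl7, the atrial regulatory light chain, had 0.662 against 4.90 FPKM (log2 ratio -1.84). For Myl7 a 230-base assembled isoform gave 3.42 of the 4.90 FPKM, and with reference isoforms only it stood at 0.662 against 1.47 FPKM, a log2 ratio of -0.58. Each light chain on the list was thus lower, and for Myl7 the size of the difference rested on a short isoform.

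Actc1, the cardiac alpha-actin gene that embryonic skeletal muscle also uses, stood at 0.269 FPKM in the liver labelled Adar1-/- Mavs-/- and 14.6 FPKM in the liver labelled Adar1-/-. Its log2 ratio of -3.62 was the lowest of the cardiac class, and the value comes from a single reference isoform of 1473 bases at chr2:113873018-113878623. Actb, the cytoplasmic actin, had 546.7 against 1025 FPKM, a log2 ratio of -0.92.

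The troponins make thin filaments sensitive to calcium, and their skeletal genes were all called lower apart from Tnnc2, the fast troponin C, which was listed at 0 in both livers. Tnni2, the fast inhibitory subunit, had 0.79 FPKM in the liver labelled Adar1-/- Mavs-/- and 15.7 FPKM in the liver labelled Adar1-/- (log2 ratio -3.23). Tnni1, its slow form, had 0.341 against 5.997 FPKM (log2 ratio -2.39). Tnnt3, the fast tropomyosin-binding subunit, had 0.276 against 6.88 FPKM (log2 ratio -2.63), and its slow form Tnnt1 had 1.72 against 9.66 FPKM (log2 ratio -1.99). Fast and slow forms were thus lower together. Within each library Tnni2 was above Tnni1, by 2.32 and 2.62 times, and Tnnt3 was below Tnnt1, at 0.161 and 0.712 of it. In the liver labelled Adar1-/-, isoforms marked as low data held most of the Tnnt1 value and 9.56 of the 15.7 FPKM of Tnni2. The Tnnt1 isoform of status OK had 2.05 FPKM there, below the 6.88 FPKM of Tnnt3, so that order depended on them.

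Cardiac troponins gave a mixed picture. Tnnt2, the cardiac form that embryonic skeletal muscle also uses, had 0.103 FPKM in the liver labelled Adar1-/- Mavs-/- and 5.18 FPKM in the liver labelled Adar1-/- (log2 ratio -2.49). Tnni3, the inhibitory subunit found in heart only, had 0.145 against 1.08 FPKM (log2 ratio -0.87) and was not called. Tnnc1, the troponin C of heart and slow muscle, went the other way, at 10.1 FPKM against a value listed at 0. Tnnc1 overlaps Nisch in the annotation, and no source used here says whether the reads keep their strand, so its value is uncertain.

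Titin, nebulin and the proteins of the Z-disc and M-line were low in both livers. Ttn had 0.0665 FPKM in the liver labelled Adar1-/- Mavs-/- and 3.06 FPKM in the liver labelled Adar1-/- (log2 ratio -1.93). The value of the liver labelled Adar1-/- was shared by a pair of full-length reference isoforms of 101674 and 100404 bases, at 1.60 and 1.46 FPKM. Actn2, the alpha-actinin of the Z-disc, had 0.0745 against 4.53 FPKM (log2 ratio -2.37). Des, the muscle intermediate filament gene, had 0.409 against 4.22 FPKM (log2 ratio -1.89). All 3 genes were called lower.

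The rest of these structural genes ranged more widely. Myoz2, a calcineurin-binding protein of the Z-disc, was listed at 0 against 3.16 FPKM, and its skeletal relative Myoz1 at 0 against 1.10 FPKM. Ldb3, a PDZ-LIM protein of the Z-disc, had 0.0714 against 1.05 FPKM (log2 ratio -0.94), just under the size called. Actn3, Tcap and Myom2, which encode the fast-fibre actinin, the titin cap and an M-line protein, stayed under 1 FPKM in both livers. Myom1 was listed at 0 in both, and in the liver labelled Adar1-/- isoforms of it carry the status of a failed estimate.

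Neb, the ruler of the thin filament, was within 2-fold at 2.19 FPKM in the liver labelled Adar1-/- Mavs-/- and 3.36 FPKM in the liver labelled Adar1-/-. Of the 2.19 FPKM, 2.08 came from an unspliced assembled fragment of 7932 bases at the edge of the gene, and with reference isoforms only the log2 ratio was -1.58 in place of -0.46. Of the myosin-binding proteins C, 1 form was called lower. Mybpc1, the slow skeletal form, had 0.0843 against 6.92 FPKM (log2 ratio -2.87, or -1.62 with reference isoforms only). Mybpc3, the cardiac form, had 0.413 against 0.53 FPKM and was not counted. Mybpc2, the fast form, was listed at 0 against 0.276 FPKM, and the related Mybph at 0 against 1.04 FPKM.

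Most calcium handling genes lay within 2-fold or under 1 FPKM, with Casq2 and Atp2a1 the exceptions. Casq2, the calsequestrin of heart and slow muscle that stores calcium in the reticulum, had 1.695 FPKM in the liver labelled Adar1-/- Mavs-/- and 10.5 FPKM in the liver labelled Adar1-/- (log2 ratio -2.10). With isoforms of status OK only the log2 ratio was 0.45. All its isoforms above 0 in the liver labelled Adar1-/- were marked as low data, so that setting leaves 0 there and cannot show a direction. Atp2a1, the calcium pump of fast muscle, was listed at 0 against 1.34 FPKM (log2 ratio -1.22, or -0.61 with reference isoforms only). Atp2a2, the pump that most tissues use besides the heart, had the highest FPKM of the list in the liver labelled Adar1-/- Mavs-/-, at 18.4 against 27.6 FPKM (log2 ratio -0.58). Its log2 ratio was -1.07 with reference isoforms only and 0.066 with isoform FPKM weighted by length, an alternative chosen after seeing the data. Ryr1, the release channel, and Trdn, which couples it to calsequestrin, stayed below 1 FPKM in both.

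For Casq1 and Pln the reference isoforms were at 0 in both livers. Casq1, the fast-muscle calsequestrin, had 0.364 against 1.35 FPKM from unspliced assembled fragments. Pln, the inhibitor of the cardiac pump, had 2.81 against 2.89 FPKM, also from unspliced assembled fragments, which lie in a region that overlaps Cep85l. The near-equal Pln values are thus no measure of its spliced mRNA.

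Among the metabolic genes, Ckm stood apart. Ckm, the muscle creatine kinase, had 0.0209 FPKM in the liver labelled Adar1-/- Mavs-/-, with bounds of 0 and 0.051, and 11.9 FPKM in the liver labelled Adar1-/-, with bounds of 11.3 and 12.6. Its log2 ratio was -3.66, the second lowest of the list. Ckb, the brain form of the same enzyme, had 2.73 against 4.46 FPKM (log2 ratio -0.57).

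The other muscle enzymes followed less clearly. Ampd1, the muscle AMP deaminase, had 0.0346 FPKM in the liver labelled Adar1-/- Mavs-/- and 2.61 FPKM in the liver labelled Adar1-/- (log2 ratio -1.80). A 299-base unspliced assembled fragment gave 2.14 of the 2.61 FPKM, and with reference isoforms only the ratio was -0.51. Pygm, the muscle glycogen phosphorylase, had 1.37 against 1.43 FPKM, but its reference isoforms were at 0 in the liver labelled Adar1-/- Mavs-/-, and with them only the log2 ratio was -0.84. Eno3, the muscle enolase, was at 1.88 FPKM against a value listed at 0, but only from assembled isoforms, and its reference isoforms were at 0 in both. Its value in liver is therefore uncertain.

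Restricting the sums to reference isoforms left 25 counted members, of which 23 were called lower and 1 higher, at a median of -2.26. Over all genes on that basis 17.6% were called lower and 7.12% higher. The called-higher gene was Tnnc1. Skeletal genes then had 11 of 11 counted called lower, cardiac genes 8 of 10 and genes of both muscles 4 of 4. The skeletal genes Atp2a1, Mybph and Ampd1 lost their call because they fell under 1 FPKM and were no longer counted, and Neb gained a call. Among cardiac genes Myl3, no longer counted, and Myl7 lost their call, and Atp2a2 gained it. Of the 218 reference isoforms of the members, 40 were above 0 in the liver labelled Adar1-/- Mavs-/-, or 18.3%, against 54 in the liver labelled Adar1-/-, or 24.8%. For all genes the shares were 23.1% and 25.0% in the same order. Across 9 other choices of scaling, pseudocount and isoforms, 11 of the 26 genes called lower kept the call in all of them.

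**Figure D2:**
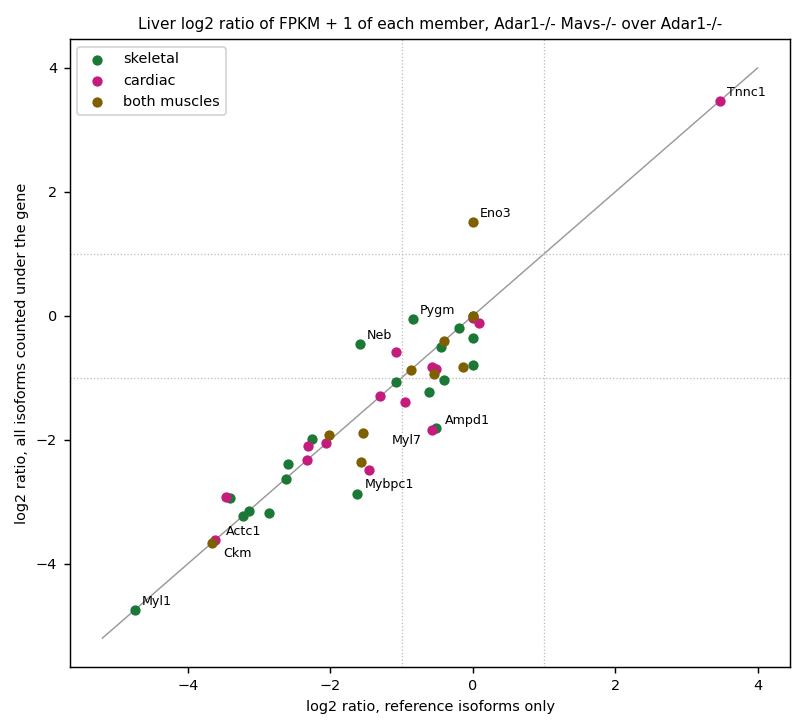
Liver log2 ratio of FPKM + 1, Adar1-/- Mavs-/- over Adar1-/-, of each of the 45 genes from reference isoforms only (horizontal) and from all isoforms counted under the gene (vertical), coloured by class, with dotted lines at the size called. Myl1, Ckm and Actc1 lie on the diagonal, Mybpc1, Ampd1 and Myl7 lie below it, and Neb and Eno3 above it.

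The genes best restricted to 1 muscle kind were also summed by kind. The 14 skeletal marker genes summed to 13.1 FPKM in the liver labelled Adar1-/- Mavs-/- and 156.3 FPKM in the liver labelled Adar1-/-, with 8 of 10 counted called lower. The 4 heart genes Myh6, Myl7, Tnni3 and Mybpc3 summed to 1.22 against 7.28 FPKM, and of the 2 counted, Myl7 was called lower. The median log2 ratio of the counted genes was -2.91 for the skeletal markers and -1.35 for the 2 heart genes. With reference isoforms only, the heart genes summed to 0.869 against 2.59 FPKM. Of them 1 was then counted, with a log2 ratio of -0.58, and none was called lower. The skeletal markers then summed to 7.82 against 146.2 FPKM, with 8 of 8 counted called lower. Myl1 was 0.128 times Myl7 in the liver labelled Adar1-/- Mavs-/- and 5.75 times Myl7 in the liver labelled Adar1-/-. Tnni2 was 5.46 times Tnni3 in the liver labelled Adar1-/- Mavs-/- and 14.5 times in the liver labelled Adar1-/-. With reference isoforms only, the ratios in the liver labelled Adar1-/- were 19.1 for Myl1 to Myl7 and 24.8 for Tnni2 to Tnni3. In the liver labelled Adar1-/- Mavs-/- the order thus depended on the pair, but each of these genes was below 1 FPKM there. Myl1 and Tnni3 had lower bounds of 0 in that library, so the size of its ratios is uncertain. In the liver labelled Adar1-/- the skeletal form was the higher in both pairs.

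Regulators and other muscle genes were described from lists named beside the members. Of 14 myogenic regulators, 11 were lower in the liver labelled Adar1-/- Mavs-/-, 2 were higher and 1 was listed at 0 in both livers. Of all 33678 genes, 12847 were lower there, or 38.1%, 8263 were higher and 12568 were listed at 0 in both. However, 10 of the 14 were not counted, and 1 of the 4 counted was called lower. That gene was Myog, the myogenin gene that drives the final step of muscle differentiation, at 0.0199 against 3.35 FPKM (log2 ratio -2.09). Mef2a, the most abundant of them and not restricted to muscle, had 14.6 against 11.8 FPKM, a log2 ratio of 0.27 that turned to -0.09 with reference isoforms only. Myod1, named after its values were seen, was listed at 0 against 0.415 FPKM. At the neuromuscular junction, Rapsn, which clusters the acetylcholine receptor, was the single counted gene, at 0.312 against 1.19 FPKM.

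Other genes of the sarcomere and the triad were mostly low in both livers. Of 40, 31 were lower in the liver labelled Adar1-/- Mavs-/-, or 77.5%, 2 were higher and 7 were listed at 0 in both. Of all 33678 genes, 12847 were lower, or 38.1%, 8263 were higher and 12568 were listed at 0 in both. Of the 8 counted, 4 were called lower and 1 higher, with a median of -0.93. With reference isoforms only, 2 of 5 counted were called lower and 1 higher, with a median of -0.29, and over the 3 genes of at least 5 FPKM in either liver the median was 0.24. Tpm2, a tropomyosin of the thin filament, had 2.97 FPKM against 37.3 FPKM in the liver labelled Adar1-/- (log2 ratio -3.29). Dmd, the dystrophin gene, went the other way at 8.99 against 3.19 FPKM (log2 ratio 1.24). Among 12 other metabolic genes, 1 of 5 counted was called lower, Cox6a2, the muscle form of a cytochrome oxidase subunit (log2 ratio -1.08). Pfkm, a phosphofructokinase, had 8.09 against 10.9 FPKM and Phka1, a phosphorylase kinase subunit, a log2 ratio of 0.21, which turned to -0.64 with reference isoforms only.

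Heart genes outside the list were mostly near 0. Both counted genes of the 10 other cardiac genes were called lower, Sln, a regulator of the calcium pump, at 0 against 6.27 FPKM and Csrp3, a LIM protein, at 0 against 2.56 FPKM. Of 12 cardiac regulators and peptides, none of the 4 counted was called, with a median of -0.26. Gata4, which the liver also uses, was the most abundant at 4.25 against 5.46 FPKM (3.31 against 2.42 FPKM from reference isoforms), Hand2 had the lowest log2 ratio (-0.59) and Tbx20 the highest (0.21). Nkx2-5, Irx4 and Nppa of this list, named after their values were seen, were near 0 in both livers, while the 4 counted genes reached 1 FPKM in each liver. Nkx2-5 had 0 against 0.0159 FPKM, Irx4 had 0 against 0.0175 FPKM and Nppa, the atrial peptide, 0.0385 against 0.319 FPKM.

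The nonmuscle forms of the same proteins served as a measure of the tissue. All 18 were counted, and 1 was called lower, Pygb, the brain glycogen phosphorylase (log2 ratio -1.13), with a median of -0.43. Actb had the highest level of the list, and Ampd3, an AMP deaminase of blood cells, had the highest log2 ratio, 0.64, from assembled isoforms alone. Ampd2 stood at 6.91 against 10.9 FPKM and Pygl, the liver phosphorylase, at 30.1 against 36.7 FPKM, beside the muscle enzymes Ampd1 and Pygm. Eno1 had 20.8 against 20.3 FPKM (14.3 against 20.3 FPKM from reference isoforms) and Actn4 had 38.9 against 48.0 FPKM. Among nonmuscle forms a difference as large as that of Ckm or Actc1 was thus not found.

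**Figure D3:**
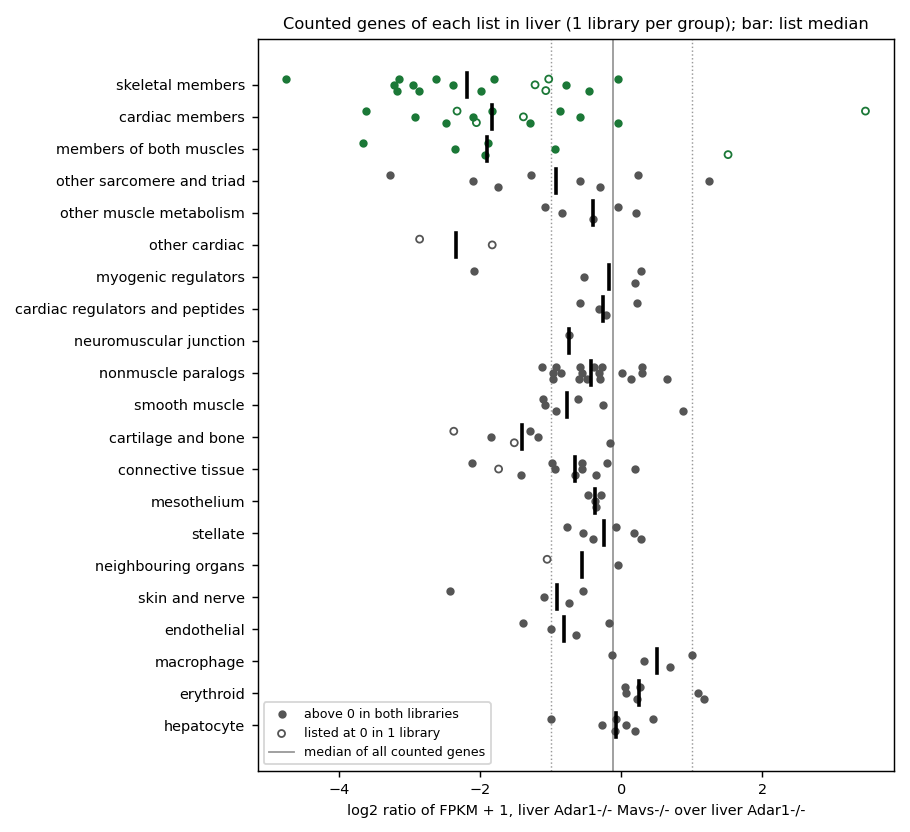
Liver log2 ratios of FPKM + 1, Adar1-/- Mavs-/- over Adar1-/-, of the counted genes of each list, with filled points above 0 in both libraries, open points listed at 0 in 1 library, black bars at list medians and a grey line at the median of all counted genes, -0.12. The 3 member classes have medians of -1.84 to -2.19, and cartilage and bone has -1.41.

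Genes of cartilage and bone, connective tissue, and skin and nerve were mostly lower in the liver labelled Adar1-/- Mavs-/-. Over all genes in liver, 38.1% were lower, with 12568 listed at 0 in both, and 10.1% of those counted were called lower. Cartilage and bone genes were lower in the liver labelled Adar1-/- Mavs-/- in 11 of 11, with 5 of 6 counted called lower and a sum of 5.13 against 23.0 FPKM. Ibsp, a bone matrix gene, was listed at 0 against 4.19 FPKM, Col9a1 likewise at 0 against 1.87 FPKM (0 against 0.132 FPKM from reference isoforms) and Matn1 at 0 against 0.152 FPKM, while Col11a1 was the most abundant at 2.18 against 6.76 FPKM. Col10a1 had the highest log2 ratio of the list, -0.16. Connective tissue genes summed to 183.1 against 318.1 FPKM, with 3 of 11 called lower, among them Col1a2 (log2 ratio -2.12), and a median of -0.66. Col3a1 had the highest level there, 52.7 against 77.1 FPKM, and Lum the highest log2 ratio, 0.19, which turned to -1.05 with reference isoforms only. Tnmd, the tendon gene, was listed at 0 against 2.34 FPKM. The values of Col1a2 and Tnmd came from assembled isoforms, and their reference isoforms were at 0 in both livers. In skin and nerve, 10 of 10 genes were lower, 2 of 4 counted were called lower and the sum was 3.99 against 14.8 FPKM, with Krt15 at 0.105 against 4.97 FPKM (0.105 against 0.507 FPKM from reference isoforms) and Map2 the most abundant at 2.64 against 5.01 FPKM. Krt5 and Sox10 were among the genes of that list at 0 in the liver labelled Adar1-/- Mavs-/-. With reference isoforms only, cartilage and bone genes had 2 of 2 counted called lower and connective tissue genes 3 of 7. Skin and nerve genes then had 0 of 1, and over all counted genes 17.6% were called lower on that basis. The part of these cell types in the muscle gene difference was not tested.

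Lists of smooth muscle, of the liver's own cells, of its surface and of neighbouring organs gave a range of values. Smooth muscle and endothelial genes had medians of -0.77 and -0.82, beside -0.66 for connective tissue genes. Smooth muscle genes summed to 40.6 against 38.1 FPKM, with 2 of 6 counted called lower. Its gene Myl9 had 30.3 against 15.8 FPKM (log2 ratio 0.88) and Actg2 the lowest log2 ratio (-1.11), and Tagln and Lmod1 were listed at 0 in both. Mesothelium (8.82 against 12.1 FPKM) and stellate cells (42.5 against 52.4 FPKM) had no call, with medians of -0.37 and -0.24. Neighbouring organs had 2 counted genes of 15, of which Sftpc, a lung surfactant gene, was called lower at 0 against 1.07 FPKM, with a sum of 3.64 against 5.29 FPKM, and Fabp2 was the most abundant, at 1.89 against 1.97 FPKM (1.89 against 1.33 FPKM from reference isoforms). Endothelial genes summed to 39.6 against 67.4 FPKM with 1 of 4 called lower, Cdh5 (5.50 against 16.0 FPKM), whose reference isoforms turned to 5.50 FPKM against a value listed at 0. Stab2, a gene of sinusoids, was the most abundant of them, at 11.9 against 24.4 FPKM. Hepatocyte genes had no call in 7 and a median of -0.08, macrophage genes no call in 4 and a median of 0.50, and erythroid genes 2 of 6 called higher, with a median of 0.24. The medians of the lists in this paragraph thus lay between -0.82 and 0.50.

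By the same rule, further genes of these lists are named. Reln was the most abundant stellate gene at 23.4 against 34.1 FPKM, with Pdgfrb at the top of the log2 ratios (0.28, or -0.40 with reference isoforms only) and Rgs5 at the bottom (-0.77). Upk3b was the most abundant mesothelial gene at 2.83 against 3.66 FPKM, and Upk1b the lowest in log2 ratio (-0.47). Alb had the highest log2 ratio of the hepatocyte genes (0.45), and Trf, the transferrin gene, the lowest, just within 2-fold at 1190 against 2347 FPKM. Of the erythroid genes, Epb42, which encodes a membrane protein, had the highest log2 ratio (1.17), while Slc4a1, the most abundant, had 1335 against 1263 FPKM and Gata1 had the lowest log2 ratio (0.05). Among macrophage genes, Adgre1 had the highest log2 ratio, just under the size called at 11.8 against 5.35 FPKM, and Cd5l the lowest (-0.13). Pecam1 had the highest endothelial log2 ratio (-0.18, or 0.79 with reference isoforms only).

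Unspliced assembled fragments without a gene name were counted inside the span of each member, as a readout apart from the summed isoforms, though from the same libraries. Skeletal genes held 14 in the liver labelled Adar1-/- Mavs-/- and 63 in the liver labelled Adar1-/-. Genes of both muscles held 13 against 73, and cardiac genes 8 against 8. Over the whole genome there were 177797 against 190827. The numbers lay mainly in a few long genes, with 1 against 27 in Ttn, 1 against 25 in Mybpc1, 9 against 26 in Myom1, 7 against 23 in Neb, 0 against 8 in Actn2 and 1 against 8 in Ldb3. Of the 45 genes, 5 held more in the liver labelled Adar1-/- Mavs-/-, 18 held more in the liver labelled Adar1-/- and 22 held equal numbers. Myom1, whose isoform values were listed at 0 in both livers, thus showed fragments in both.

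**Figure D4:**
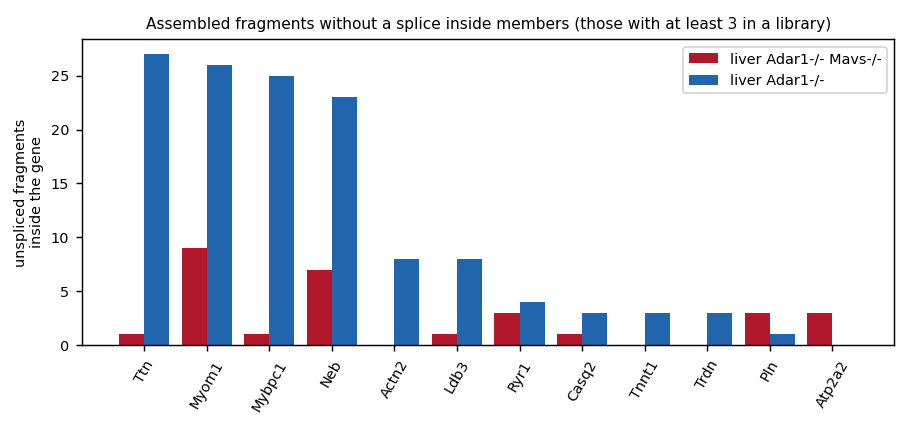
Number of unspliced, unnamed assembled fragments inside each muscle gene with at least 3 in a liver library, Adar1-/- Mavs-/- at the left of each pair and Adar1-/- at the right. Ttn, Myom1, Mybpc1 and Neb have between 1 and 9 in the library labelled Adar1-/- Mavs-/- and between 23 and 27 in the library labelled Adar1-/-, and Pln and Atp2a2 have more in the library labelled Adar1-/- Mavs-/-.

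In whole embryos the 9 members on chromosomes 10 and 11 could be followed, and 8 were counted. Of those, 1 was called lower and none higher in the library labelled Adar1-/- Mavs-/-, where 11.7% of all 1888 counted genes were called lower and 7.36% higher, and the members' median log2 ratio was -0.39, beside -0.12 for all. Among all called genes 38.6% were higher, 21.5% with values as deposited and 8.08% when scaled to equal sums over shared genes. Myl7 and Myl4, the genes of atrial light chains, had the highest values. Myl7 had 45.8 FPKM in the embryo labelled Adar1-/- Mavs-/- and 53.6 FPKM in the embryo labelled Adar1-/-, a log2 ratio of 0.17 that turned to -0.22 with values as deposited and -0.77 with equal sums. Myl4 had 39.2 against 54.8 FPKM (log2 ratio -0.08).

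Skeletal genes stood at lower FPKM than these atrial genes in both embryos. Myh3 had 4.71 FPKM in the embryo labelled Adar1-/- Mavs-/- and 12.95 FPKM in the embryo labelled Adar1-/- (log2 ratio -0.95), just under the size called. Myh8 had 0.658 against 1.75 FPKM and Mybpc1 had 0.628 against 1.503 FPKM, within 2-fold as well. The Mybpc1 value in the embryo labelled Adar1-/- came from assembled isoforms, and with reference isoforms only its log2 ratio of -0.45 turned to 0.86. Myl4 and Myl7 thus differed by less between the embryos than Myh3 did, in 1 library each.

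The other genes on these chromosomes ranged widely in level. Tcap had 1.06 against 2.03 FPKM, Pln had 0.61 against 1.27 FPKM, and Trdn was listed at 0 in both. Eno3 had 11.7 FPKM in the embryo labelled Adar1-/- Mavs-/- and 37.2 FPKM in the embryo labelled Adar1-/- (log2 ratio -1.21), and was the gene called. A 295-base assembled fragment held 27.1 of the 37.2 FPKM, and with reference isoforms only the log2 ratio was 2.25, so its direction turned. Adult heavy chain genes of the cluster stayed at or below 0.235 FPKM in embryos, with Myh13 at 0.107 against 0.235 FPKM and Myh4 at 0.0704 against 0.136 FPKM. Actn2 was listed at 2.99 FPKM in the embryo labelled Adar1-/- Mavs-/- alone, beyond the part the other embryo table covers.

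Companion genes in embryos gave few counted genes. Of 11 other sarcomere and triad genes in both embryo tables, 3 were counted and 1 was called higher, Jsrp1, a triad protein (log2 ratio 1.05, at 1.57 against 0.487 FPKM), which turned to -0.45 with reference isoforms only. Slc2a4, the insulin-sensitive glucose transporter, was called lower at 4.70 against 14.1 FPKM, and Chrnb1, an acetylcholine receptor subunit, at 0.462 against 2.63 FPKM. With reference isoforms only, both turned, to log2 ratios of 1.58 for Slc2a4 and 0.49 for Chrnb1. Col1a1 was called lower too, at 20.9 against 77.9 FPKM, but had a log2 ratio of -0.10 with reference isoforms only. Myf5, the early myogenic regulator, had 1.26 against 0.773 FPKM, a log2 ratio of 0.59 that turned to -0.83. The embryo calls among the companion genes thus depended on assembled isoforms. The remaining genes named by the rule lay within 2-fold. In log2 ratio, Hey2 had -0.28 (0.33 with reference isoforms only) and Myocd -0.67 among cardiac regulators, Stac3 of the triad had -0.22 (-1.07 with reference isoforms only), Actg1 had 0.20 and Myh10 -0.88 among nonmuscle forms, and Col6a1 had -0.06 in connective tissue. Markers of other cells had log2 ratios of 0.29 for Smtn (-1.63 with reference isoforms only), 0.31 for Sox9 (-0.17 with reference isoforms only), -0.24 for Ngfr, -0.06 for Krt15, -0.23 for Krt14, 0.21 for Slc4a1 and 0.51 for Pecam1.

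The liver and the embryo differ in tissue, age and strain label at once, and these cannot be told apart. Against the embryo of the same label, 6 of 7 counted members were called lower and 1 higher in the liver labelled Adar1-/- Mavs-/-, where 27.3% of all counted genes were called lower and 30.8% higher. In the liver labelled Adar1-/-, 4 of 8 were called lower and 3 higher, where 30.1% of all counted genes were called lower and 24.6% higher. Pln was called higher under both labels (1.37 and 1.03), with liver values from the unspliced fragments described above. These comparisons share libraries with those above, and their values are given side by side for that reason. Myl7 had log2 ratios of liver over embryo of -4.75 under the label Adar1-/- Mavs-/- and -2.94 under the label Adar1-/-, and Myl4 of -4.50 and -1.82. Myh3 had -2.44 and -0.27, while Myh8 had -0.67 and 2.03 and Mybpc1 had -0.57 and 1.95. Under the label Adar1-/-, the perinatal heavy chain and the slow binding protein C were thus higher in the later liver than in the whole embryo.

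**Figure D5:**
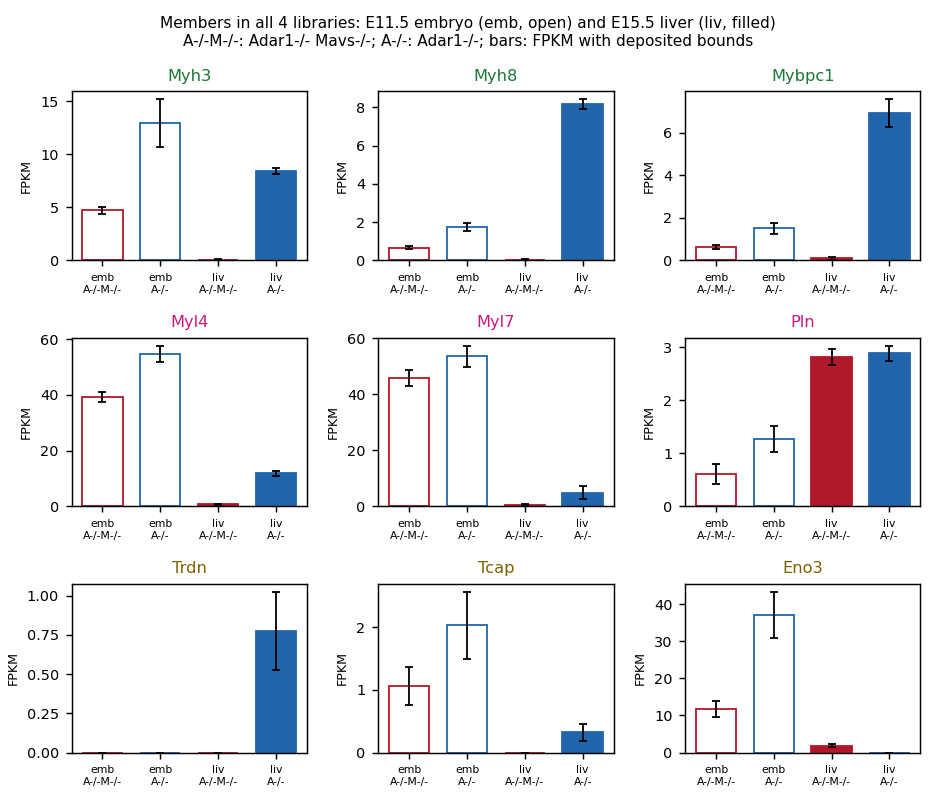
FPKM of the 9 members found in all 4 libraries, in whole embryos at E11.5 (open bars) and livers at E15.5 (filled bars), Adar1-/- Mavs-/- left of Adar1-/- in each tissue, with the deposited bounds of 1 library as error bars. Myl4 and Myl7 are highest in embryos, Myh8 and Mybpc1 in the liver labelled Adar1-/-.

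The balance of genes was also compared within libraries, in a measure that no scaling between libraries touches. Myh3 was 7.17 and 7.39 times Myh8 in the embryos labelled Adar1-/- Mavs-/- and Adar1-/-, and 1.38 and 1.04 times Myh8 in the livers in the same order. The ratio of 1.38 is uncertain, since it comes from 0.048 and 0.0347 FPKM with overlapping bounds. With reference isoforms only, Myh3 was 0.809 times Myh8 in the liver labelled Adar1-/-. Myh3 was 0.103 and 0.241 times Myl7 in the embryos, and 0.0725 and 1.73 times Myl7 in the livers. With reference isoforms only, the ratio in the liver labelled Adar1-/- was 4.49. Against Myl4, Myh3 stood below it in all 4 libraries, at 0.12 and 0.236 times Myl4 in the embryos and 0.0697 and 0.717 times in the livers. With reference isoforms only, the liver ratios to Myl4 were 0.291 and 0.56, in the same order.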

How the data were processed

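Trizol extraction was followed by Illumina library preparation, per the labels' protocols. The submitters' processing notes name TopHat 1.4.0, Cufflinks 2.2.1 and the mm9 build, with no roles. The deposited values are FPKM per isoform with lower and upper bounds and a status, and coverage (mean read depth, a signal), per the file headers. Assembly and alignment options: not given in the sources used here.

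Symbols came from GENCODE M21 through transcript identifiers, of which 86.5% matched in each liver table and 88.6% and 90.1% in the embryo tables labelled Adar1-/- Mavs-/- and Adar1-/-. Unnamed isoforms made up 42.5% and 44.9% of the length-weighted FPKM in the livers and 65.2% and 45.9% in the embryos, in the same order, and entered no gene value. Assembled isoforms were counted under the gene of the reference isoforms that they overlapped best. Isoform FPKM were summed per gene and compared as log2 ratios of FPKM plus a pseudocount of 1, Adar1-/- Mavs-/- over Adar1-/-, after scaling to a median of 0 over genes that reached 5 FPKM in both libraries (factor 0.987 in liver from 6393 genes, 1.32 in embryos from 903 genes). This scale understates differences of low genes. No p-value was computed, since each group is 1 library. An exact 0 can be a failed estimate.

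The members and the 18 companion lists were chosen with earlier results of these data known. All members were named, and from each companion list the most abundant gene in the liver labelled Adar1-/- and the genes with the highest and lowest log2 ratios, with nonmuscle forms and the heavy chain cluster besides; a few companion genes are not reported here. The calculation was tested on simulated data. Python 3.11.15, numpy 2.4.6, pandas 2.3.3 and matplotlib 3.10.9 were used.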

Additional observations from a re-analysis of the deposited data

Results flagged for a closer look

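Myl7 and Eno3 differed in direction between the tissues, and the difference was not tested. Myl7 had a log2 ratio of -1.84 in liver and 0.17 in embryos, Adar1-/- Mavs-/- over Adar1-/-. Eno3 had 1.51 in liver, where the library labelled Adar1-/- lists it at 0, and -1.21 in embryos. In embryos the value of Myl7 turned to -0.22 with FPKM as deposited and -0.77 with equal sums, then in the direction seen in liver. That of Eno3 turned to 2.25 with reference isoforms only. On that basis Eno3 was at 0 in both livers, so it had no liver direction to compare.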

How the results depend on the processing

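No paired analysis was possible because each group is 1 library, and for the same reason no replicate could be left out. Of 94 recomputed class counts and medians, 64 stayed within the limits set and 30 moved. No median among them changed sign, and a count cannot do so. Of 350 values of the companion lists, 104 moved. Among these, 5 of 175 medians changed sign in liver: other sarcomere and triad genes to 0.24 and stellate genes to 0.17 at 5 FPKM or more, hepatocyte genes to 0.04 with length weighting, erythroid genes to -0.07 with equal sums, and endothelial genes to 0.03 with reference isoforms. A pseudocount of 0.1 gave liver medians of -3.82 (skeletal), -3.91 (cardiac) and -3.68 (both muscles), and in embryos a median of -0.69 and 2 genes called lower. A pseudocount of 5 gave -1.09, -0.71 and -0.72 in liver, with 3 cardiac genes and 1 gene of both muscles called lower. With no filter the medians were -1.51, -1.39 and -0.90. With at least 5 FPKM in either library they were -2.95, -2.29 and -3.66, with 4 cardiac genes and 1 gene of both muscles called lower, since fewer genes enter. Reference isoforms only gave a skeletal median of -2.63, and isoforms of status OK only gave -1.90 for skeletal and -1.39 for cardiac genes. In embryos, values as deposited gave 2 genes called lower, and equal sums gave 3 and a median of -0.87. Reference isoforms only gave 0 called lower there and 1 called higher, Eno3. Chosen after seeing the data, spliced isoforms only gave a skeletal median of -2.51 and 0 embryo calls, isoform FPKM weighted by length gave a cardiac median of -1.55 and 0 embryo calls, and members above 0 in both libraries gave a skeletal median of -2.63. The cause of these movements was not tested. Genes near 1 FPKM have wide bounds, so small differences among them were not detectable at this depth.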
